A study of Homo sapiens with 6 samples.

Results

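Ribosome biogenesis and nucleolar genes were followed in the cell line NCI-H292, which was derived from a mucoepidermoid carcinoma of the human lung. The group consisted of 42 genes listed by function, and its members were the probe sets annotated to exactly 1 of those genes. Such probe sets were found for 37 of the 42 genes, and all 37 were bright enough to be tested among 11895 genes in all. NOP56, DKC1, BOP1, GNL3 and PPAN had no probe set of that kind and were not analysed here. The study set 3 arrays of cells carrying a stable CT45A1 construct fused to the fluorescent protein Venus (CT45A1-overexpression) against 3 arrays of cells that had received the Venus vector (CT45A1-negative). Both groups therefore carried Venus, and the labels do not say whether either was a single clone or a pool. CT45A1 belongs to the cancer/testis antigens, whose expression is normally largely limited to the testis and returns in some tumours. Nothing in the labels tells whether replicates came from separate cultures, so p-values here reflect the spread between these arrays alone, and that spread may be technical.

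Ribosomes are built in the nucleolus, where RNA polymerase I transcribes the ribosomal DNA into a long precursor RNA. Small nucleolar ribonucleoproteins (snoRNPs) modify this precursor, and large assemblies of helicases, GTPases and WD-repeat scaffold proteins fold and cleave it into the RNAs of the small and large subunits. The genes for these factors are usually expressed together, are well known targets of the transcription factor MYC, and are highly expressed in growing tumour cells.

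The deposited values were MAS5 signals on a linear intensity scale, 1 for each probe set, with a median per array of 72.6 to 83.3. Each gene was represented by its brightest probe set, and a difference is the mean log2 signal of the overexpression arrays minus that of the negative arrays. "Called" means an adjusted p under 0.05 from limma, with Benjamini-Hochberg adjustment over all 11895 genes and n = 3 arrays per group. The brighter CT45 probe set, which matches several CT45 genes, gave signals of 518, 700.1 and 445 on the overexpression arrays against 23.1, 15.8 and 1.95 on the negative ones, and the dimmer one was likewise higher on every overexpression array, at 154, 179 and 207 against 2.27, 36.3 and 22.04. All 6 epithelial markers (KRT8, KRT18, KRT19, KRT7, EPCAM and CDH1) were tested and bright, with mean log2 signals of 12.17 to 14.64, and KRT18 alone was called, lower with CT45A1. Of 12 markers of other cell types, CD14, CD79A, PECAM1 and CDH5 were above the filter, at mean log2 signals of 7.25 to 7.36, and none was called. The summed signal was 335 to 434 with CT45A1 and 237 to 380 without it for the 2 leukocyte genes, and 358 to 423 against 236 to 310 for the 2 endothelial genes. PTPRC, CD3D, LYZ, VWF and all 4 fibroblast markers were too dim to test, and the part of such cells in the results was not tested. The ratio of the actin 3' to the actin 5' control signal, which reflects how intact the RNA was and how far labelling ran, was 1.42 to 1.55 on the overexpression arrays and 1.64 to 1.91 on the negative ones. The groups did not overlap in this ratio. A fit with the ratio as a covariate therefore cannot tell it apart from CT45A1.

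WDR43 was the single member called, and it fell with CT45A1 to 0.721 times its negative level. The other 36 members were not called, but most of them lay slightly below 0. In all, 28 of the 37 differences were below 0 and 9 above, with a median of -0.12 and a range from -0.47 for WDR43 to 0.48 for RRP9. Among all genes tested, 48.3% of differences were below 0 and the median was 0.01. Called lower were 1 of 37 members, where 1.89% of all genes were, and called higher in limma were 0 members, where 1.94% of all genes were. At an unadjusted limma p under 0.05, 15 members were lower and 1 was higher, where all genes gave 10.2% and 10.7%.

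On the level of single arrays, 17 of the 37 members (45.9%) had all 3 overexpression arrays below all 3 negative arrays, a separation shown downward by 13.8% of all genes. POLR1C alone was separated upward, as were 13.4% of all genes, and 19 members overlapped between the groups. The highest signal of a member lay on a negative array for 29 members, and the lowest on an overexpression array for 30. Such counts were not made for all genes. The median deviation of the members from their negative mean was -0.10, -0.13 and -0.10 on overexpression replicates 1, 2 and 3, and all 3 arrays thus lay below 0. The same median over all genes tested was 0.01, 0.01 and 0.02.

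**Figure D1:**
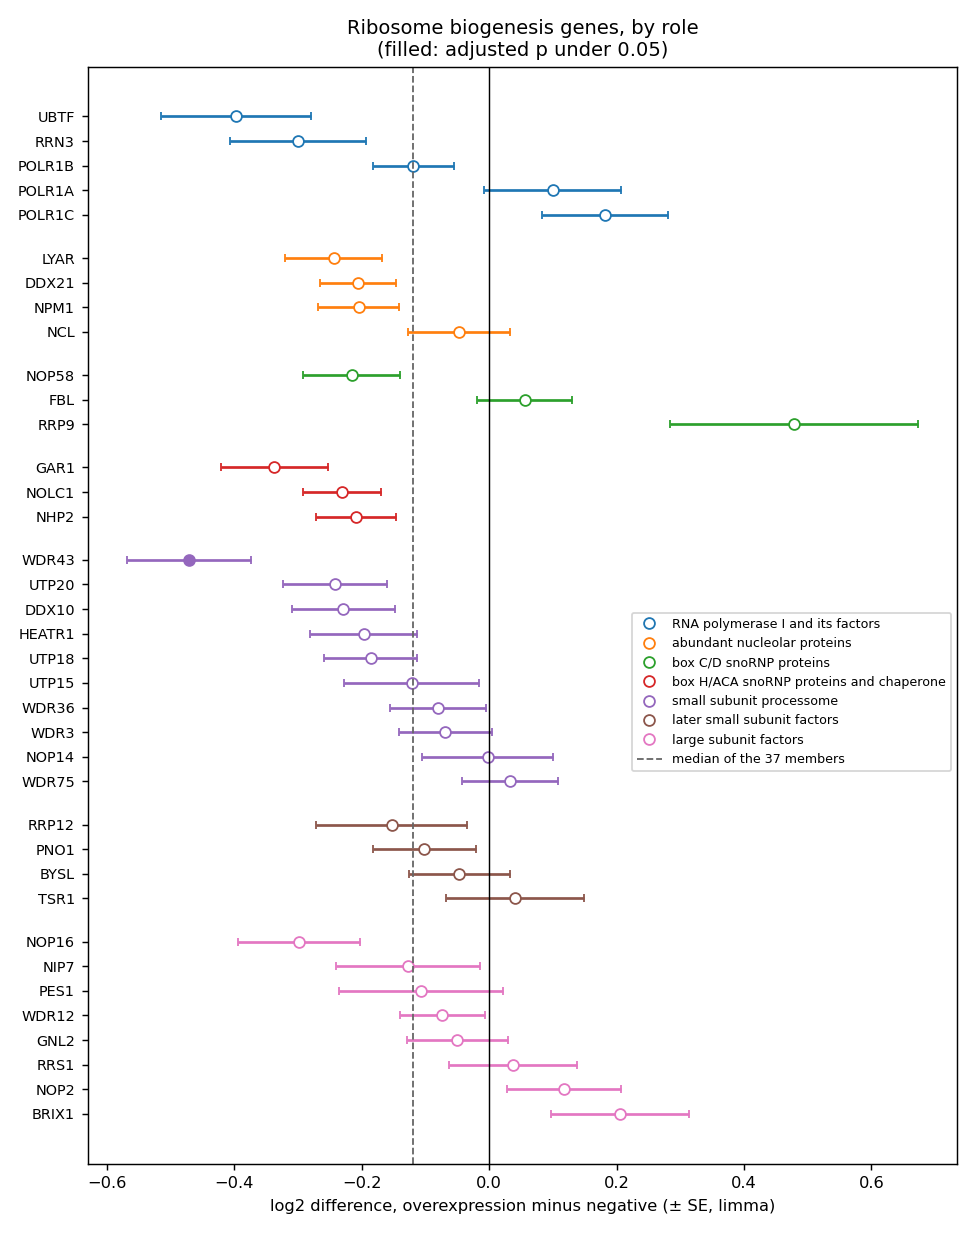
Log2 difference (horizontal axis, overexpression minus negative, with limma's standard error as bars, n = 3 arrays per group) of each of the 37 members, ordered by role and by value. Filled points have an adjusted p under 0.05, which only WDR43 reached. The dashed line is the members' median, -0.12, and 28 points lie left of 0.

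Brightness moved with the direction of the differences in these arrays, and the members were mostly bright. Of all genes with a mean log2 signal of 10 or more, 60.3% lay below 0, with a median of -0.04, and 21.3% were separated downward. Of the genes under 10, 38.9% lay below 0, with a median of 0.07, and 7.80% were separated downward. The 30 members at 10 or more had a median of -0.12, with 23 below 0 and 16 (53.3%) separated downward. The 7 dimmer members had a median of -0.11, with 5 below 0 and 1, UBTF, separated downward. The part that brightness has in the members' shift was not tested.

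**Figure D2:**
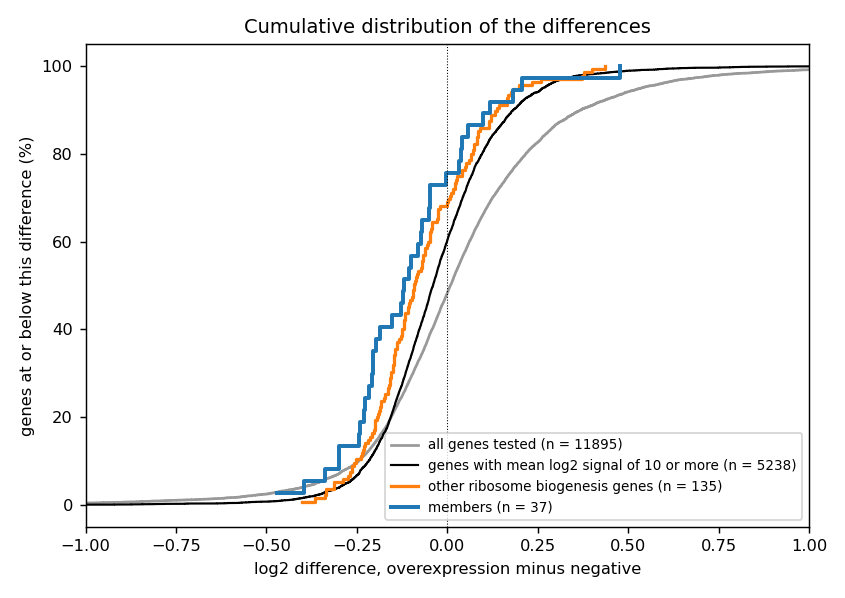
Share of genes (vertical axis, percent) at or below each log2 difference (horizontal axis, drawn from -1 to 1) for all 11895 genes, the 5238 genes with a mean log2 signal of 10 or more, the 135 other ribosome biogenesis genes and the 37 members. At 0 the curves stand at 48.3%, 60.3%, 68.9% and 75.7% in that order, so the members' curve lies farthest to the left there.

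The small subunit processome is the assembly that folds the precursor and releases the RNA of the small subunit. Of its 10 members, 9 lay below 0, 6 were separated downward and 1 was called, with a median of -0.15. WDR43 is a scaffold of the subcomplex that binds the nascent precursor first. Its signals were 833, 992 and 945 on the overexpression arrays and 1189, 1346 and 1299.6 on the negative ones. Every overexpression array lay below every negative one, and the highest of the former, 992, was well short of the lowest of the latter, 1189. The difference was -0.47 (SE 0.10, limma adjusted p = 0.0292), with log2 means of 9.85 ± 0.13 (SD, n = 3) with CT45A1 and 10.32 ± 0.09 without it. It was the only WDR43 probe set kept, so no other probe set of that gene bears on it. The call was lost without overexpression replicate 1, 2 or 3 (adjusted p = 0.100, 0.0738 and 0.0607), without negative replicate 1 or 2 (adjusted p = 0.0640 and 0.0926), without the variance trend (adjusted p = 0.135), and when the actin ratio was a covariate, where the difference was -0.38 (adjusted p = 0.254).

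Among the other processome members, none passed the test. UTP20, a large scaffold protein, gave 1467, 1474 and 1643 with CT45A1 and 1733, 1903 and 1783 without it, a difference of -0.24 (SE 0.08, limma adjusted p = 0.135). DDX10, an RNA helicase, gave 2186, 2381 and 2572 against 2737, 2929.9 and 2687, a difference of -0.23. UTP18, a WD-repeat subunit, gave 3763, 3337 and 3741 against 4154, 4264 and 3905, a difference of -0.19, while its dimmer probe set differed by 0.15 and their mean by -0.018 (limma adjusted p = 0.962). At the brightest probe set of these 3 genes the groups did not overlap, but the gaps were narrow, from 2572 to 2687 in DDX10. HEATR1, a scaffold that also acts in ribosomal DNA transcription, differed by -0.20, and by -0.35 and -0.19 at other probe sets. Its dimmest probe set, at -0.46, lay above the array median on the negative arrays only. That probe set passed the filter through the negative group alone, so its sign is tied to the filter. UTP15, WDR36, WDR3 and NOP14 differed by -0.12, -0.080, -0.069 and -0.003, of which WDR36 was separated downward. WDR75, which sits in the same subcomplex as WDR43, differed by 0.033 (SE 0.08), and its arrays overlapped, at 1697, 1634 and 1639 against 1607, 1554 and 1700.2.

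The box H/ACA snoRNPs turn uridines of ribosomal RNA into pseudouridines. The 3 measured genes of this group were GAR1, NHP2 and the snoRNP chaperone NOLC1. At their brightest probe sets all 3 lay below 0 and were separated downward, but none was called. Their median, -0.23, is the value of NOLC1, whose probe sets disagreed. GAR1, a core protein, came closest. Its signals were 1415, 1479 and 1516 with CT45A1 and 1789, 1755 and 2037 without it. The highest overexpression array, 1516, lay below the lowest negative array, 1755. The difference was -0.34 (SE 0.08, limma adjusted p = 0.0563), and it passed with robust eBayes (adjusted p = 0.0497), with a filter at the 75th percentile (adjusted p = 0.0451), and after array median centring (adjusted p = 0.00835). With the actin ratio as a covariate it was -0.11 (adjusted p = 0.683). NHP2, which contacts the guide RNA, gave 7426, 7258 and 7501 against 8939.6, 7975 and 8755, a difference of -0.21 (SE 0.06, limma adjusted p = 0.104). NOP10, a snoRNP protein kept in another list of ribosome biogenesis genes, differed by -0.19 and overlapped between the groups.

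NOLC1, also known as Nopp140, is a chaperone of snoRNPs that shuttles between nucleolus and Cajal bodies. Its brightest probe set gave 7199.5, 7012 and 7630.0 with CT45A1 and 8168, 8746 and 8712 without it, a difference of -0.23 (SE 0.06, limma adjusted p = 0.0710). Its other probe sets gave 0.17 and 0.04, so the probe sets of NOLC1 had opposite signs. With their mean the difference was -0.01.

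The box C/D snoRNPs methylate the ribose of ribosomal RNA, and their 3 measured genes went different ways. NOP58, a core scaffold, gave 5755, 5329 and 4832 with CT45A1 and 5822, 6188 and 6446 without it, a difference of -0.22 (SE 0.08, limma adjusted p = 0.149). The groups were separated by a small step, from 5755 to 5822. FBL, the methyltransferase itself, gave 6932, 7592 and 8291 against 7245, 7009 and 7650.1, and the difference of 0.056 (SE 0.07) lay within the spread between arrays. RRP9, which binds the U3 snoRNA, had the largest difference above 0, 0.48 (SE 0.19, limma adjusted p = 0.200). Its signals were 371, 301 and 232 against 191, 245 and 204, and overexpression replicate 3 lay below negative replicate 2, so the groups overlapped.

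Among the abundant nucleolar proteins all 4 members lay below 0, 3 were separated downward and none was called, with a median of -0.21. NPM1, nucleophosmin, a histone and ribosome chaperone, gave 28206, 29803 and 25876 with CT45A1 and 33264, 32719 and 30591 without it. The groups did not overlap, although 29803 and 30591 were close. The difference was -0.20 (SE 0.06, limma adjusted p = 0.114), and the 2 other NPM1 probe sets differed by -0.22 and -0.12. DDX21, an RNA helicase of ribosomal RNA transcription and processing, gave 10422, 9916 and 10879 against 12463, 11934 and 11601, a difference of -0.21 (SE 0.06, limma adjusted p = 0.0938), with -0.14 at its other probe set. LYAR, a nucleolar zinc-finger protein, gave 1610.2, 1468 and 1617 against 1852, 1899.7 and 1806, a difference of -0.24 (SE 0.08), with -0.31 at its other probe set. NCL, nucleolin, showed no such step. Its arrays overlapped, at 18738, 17877 and 15526 against 16606, 19271 and 17912, and the difference was -0.047 (SE 0.08, limma adjusted p = 0.780).

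RNA polymerase I subunits and their initiation factors lay on both sides of 0. Of the 5 members, 3 lay below 0 and 2 above, and none was called. UBTF, which binds along active ribosomal DNA, had the largest difference of this group, with 452, 475 and 399 against 542, 568 and 636 and no overlap between the groups. The difference was -0.40 (SE 0.12, limma adjusted p = 0.101). Its 3 other probe sets, all dimmer, differed by 0.30, 0.03 and -0.09, and with the mean of its probe sets UBTF differed by -0.04. RRN3, the factor that brings the polymerase to its promoter, gave 1856, 1579 and 1425 against 2180.5, 1882 and 1900.4, a difference of -0.30 (SE 0.11, limma adjusted p = 0.149). The groups were separated by the small step from 1856 to 1882.

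POLR1B, the second-largest subunit, gave tightly grouped signals of 2732, 2733 and 2669 with CT45A1 and 2996, 2933 and 2906 without it. The difference of -0.12 (SE 0.06, limma adjusted p = 0.315) was small, and its dimmer probe sets differed by 0.24, 0.03 and -0.05. POLR1C, which RNA polymerases I and III share, gave 1418, 1140.3 and 1169 against 1107, 1076 and 1088, a difference of 0.18 (SE 0.10). Overexpression replicate 1 stood above the others, and the other POLR1C probe set differed by 0.03. POLR1A, the largest subunit, differed by 0.099 (SE 0.11) and overlapped between the groups.

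The factors of later small subunit maturation showed the least separation at the brightest probe set. Of 4 members, 3 lay below 0 there and none was separated in either direction. None reached an unadjusted limma p under 0.05 at that probe set (none had an adjusted p under 0.491). RRP12, an export factor, gave 607, 592 and 555 with CT45A1 and 571, 748 and 642 without it, a difference of -0.15 (SE 0.12). TSR1, which blocks early binding of translation factors, gave 4302, 3291 and 4312 against 4148, 3823 and 3541, a difference of 0.040 (SE 0.11). PNO1 and BYSL, which bind the maturing small subunit RNA and particle, differed by -0.10 and -0.047. The dimmer PNO1 probe sets were separated downward, at -0.35 and -0.17, and were not called. The dimmer TSR1 and RRP12 probe sets overlapped between the groups.

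Of the 8 measured large subunit factors, 5 lay below 0 and 3 above, 1 was separated downward and none was called, with a median of -0.06. NOP16, a nucleolar protein of the early large subunit particle, gave 2073, 2406 and 2441 with CT45A1 and 3164, 2787 and 2570.2 without it, a difference of -0.30 (SE 0.10, limma adjusted p = 0.124). Its groups were separated, and another probe set differed by -0.16. Its dimmest probe set differed by -0.27 (SE 0.48), with overlapping arrays. WDR12 and PES1, which form a complex required for large subunit RNA processing, differed by -0.073 (SE 0.07) and -0.11 (SE 0.13), with overlapping arrays. The GTPase GNL2 and the assembly factor NIP7 differed by -0.050 and -0.13, with overlapping arrays. The dimmer NIP7 probe set, at -0.22 (SE 0.08), was separated downward and was not called. BRIX1 and RRS1, early assembly factors, and NOP2, a methyltransferase of the large subunit RNA, differed by 0.21, 0.037 and 0.12, and all 3 overlapped between the groups.

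**Figure D3:**
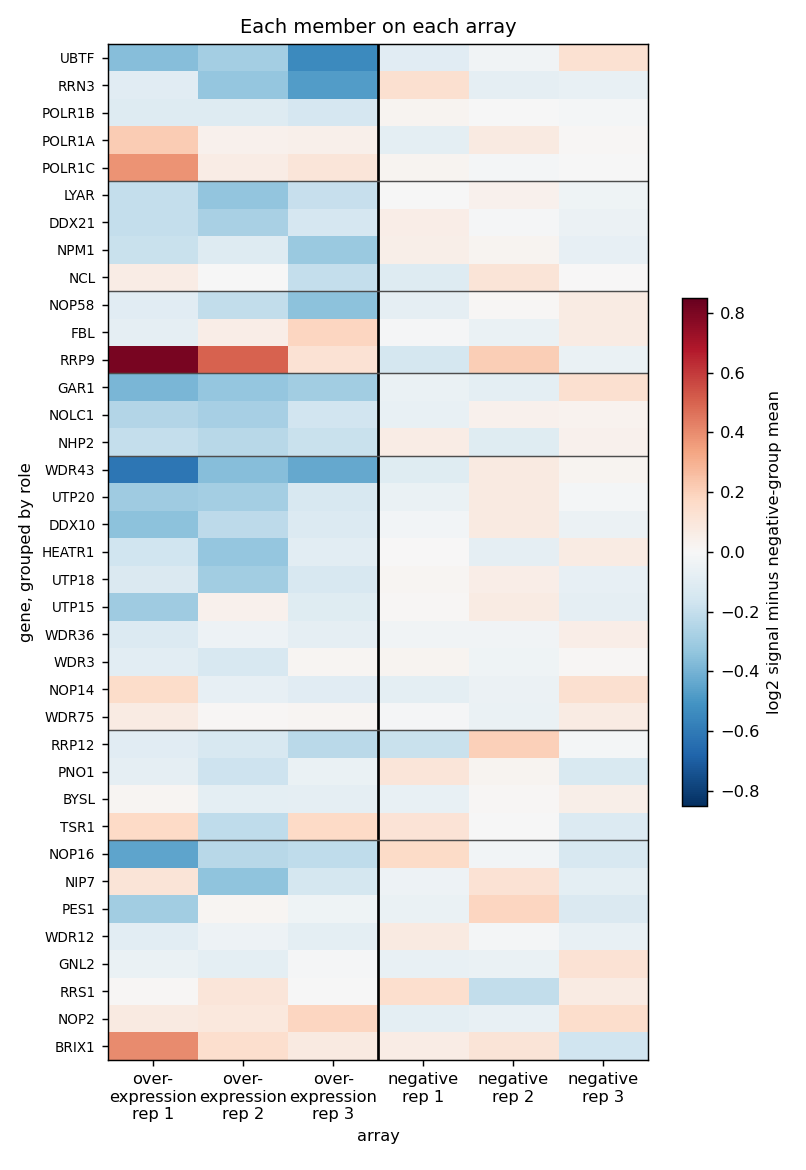
Log2 signal of each member (rows, grouped by role) on each array (columns), as its difference from the mean of the 3 negative arrays, from blue (lower) to red (higher). The rows of the H/ACA group (GAR1, NOLC1, NHP2) and of WDR43 are blue on all 3 overexpression arrays, as are many others, such as UBTF and NPM1. RRP9 and BRIX1 are red there, as are some others, such as POLR1C.

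The dimmer probe sets of the members were counted together with the brightest. These counts thus partly repeat the main result and are no separate check of it. The 37 members had 70 probe sets bright enough to test, and 19 members had more than 1. In 10 of these 19 all probe sets lay below 0, in 1 (POLR1C) all lay above 0, and in 8 they had both signs. Over the 70 probe sets, 49 lay below 0 and 27 (38.6%) were separated downward, where all 27618 probe sets gave 44.5% and 11.4%. With each gene's probe sets averaged, the members' median was -0.07, against 0.02 for all genes, and 13 members were separated downward. HEATR1, LYAR, NPM1, DDX21 and NOP16 had every probe set below 0, while NOLC1, UBTF, POLR1B and UTP18 did not. The dimmest HEATR1 probe set passed the filter through the negative arrays alone, so its sign adds nothing here. That of NOP16 differed by less than its SE of 0.48, so its sign adds nothing either.

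Another list held 142 further ribosome biogenesis genes, of which 135 were tested. Of these, 1 was called higher, 2 were called lower and 132 were not called, where 1.94% and 1.89% of all genes were called. Their median was -0.09, with 93 below 0, and 32 (23.7%) were separated downward and 10 (7.41%) upward. All genes gave 13.8% and 13.4%, and the share separated downward was 21.3% among all genes with a mean log2 signal of 10 or more. IMP3, a U3 snoRNP protein, rose by 0.44 (SE 0.09, limma adjusted p = 0.0252), from 3688, 3215 and 3025 on the negative arrays to 4511, 4179 and 4706 with CT45A1. CCDC86, a nucleolar coiled-coil protein, fell, with a difference of -0.37 (SE 0.09, limma adjusted p = 0.0447), with signals of 1487, 1253 and 1396 against 1814, 1714 and 1793. RRP15, a factor of large subunit maturation, fell, with a difference of -0.31 (SE 0.08, limma adjusted p = 0.0496), with signals of 2009, 2088 and 1934 against 2535, 2622 and 2336, while the mean over its probe sets gave -0.076 (adjusted p = 0.800). IMP3 lost the call without overexpression replicate 1, 2 or 3 (adjusted p = 0.0877, 0.0658 and 0.0653) or negative replicate 2 (adjusted p = 0.0754), and kept it without negative replicate 1 or 3. RRP15 lost it without any single array except negative replicate 3 (adjusted p from 0.118 to 0.148). CCDC86 lost it without any one of the 6 arrays (adjusted p from 0.0674 to 0.185). Over all alternatives, IMP3 passed in 9 of 16, CCDC86 in 7 of 17 and RRP15 in 6 of 17.

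By role, the further large subunit factors had a median of -0.13 over 51 genes, with 40 below 0 and 15 separated downward. The further small subunit processome genes had a median of -0.07 over 36, with 22 below 0. The further RNA polymerase I factors had a median of -0.07 over 12, with 7 below 0. The RNA exosome and trimming enzymes, which degrade spacers of the precursor, had a median of -0.08 over 16, with 13 below 0. The snoRNP assembly factors had a median of -0.15 over 10, with 7 below 0 and none separated. Only the later small subunit factors lay on the other side, with a median of 0.09 over 10, 6 of them above 0. Under array median centring every one of these medians was 0.145 lower, which put all of them below 0.

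The number of members called changed with the scaling of the arrays. The deposited arrays shared a trimmed mean, but their log2 medians were 0.145 higher in the overexpression group. Centring each array on its median lowers every difference by that amount. It called 16 members lower and 0 higher, while 13.9% of all genes were then called lower, with 165 genes higher and 1650 lower against 231 and 225 as deposited. Relative to the median of all genes, the members' median was -0.13 as deposited. Centring moves every difference alike and so cannot change that value. After quantile normalization, which called WDR43 alone, it was -0.09. The signs of POLR1A, FBL, WDR75, TSR1, NOP2 and RRS1 turned to below 0 after centring.

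**Figure D4:**
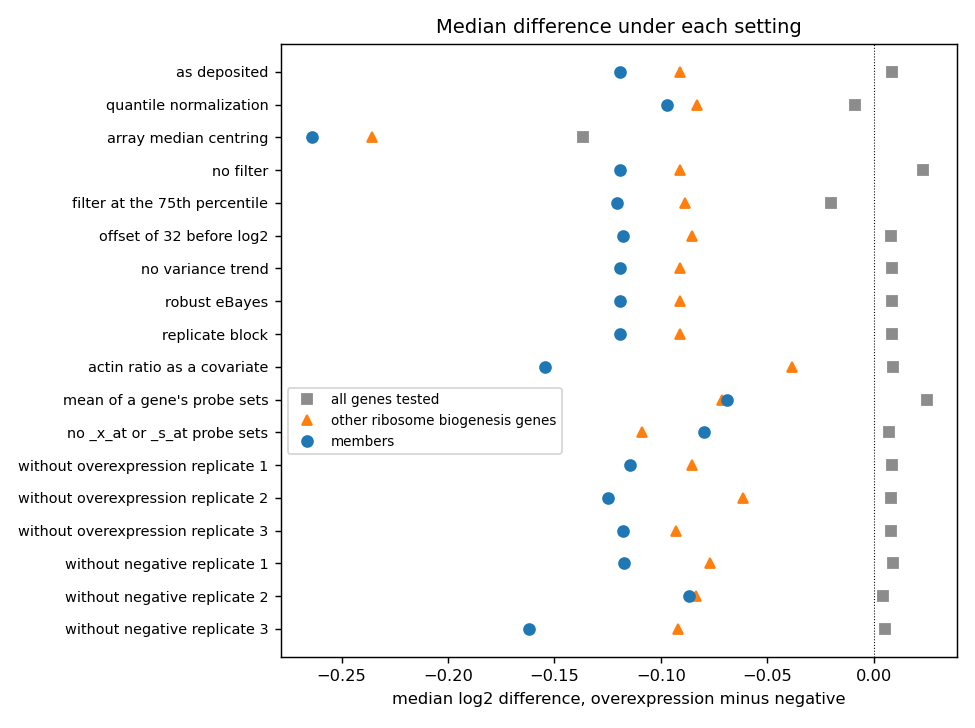
Median log2 difference (horizontal axis, overexpression minus negative) of the members, the other ribosome biogenesis genes and all genes tested under each setting (vertical axis). The members' median ranges from -0.26 after array median centring to -0.07 with each gene's probe sets averaged, and lies left of the median of all genes in every setting drawn. Settings that change only the error model repeat the medians as deposited.

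MYC, the best known activator of these genes, was measured alongside. Its signals were 5939, 5906 and 6142 with CT45A1 and 6477, 6163 and 6719 without it, a difference of -0.11 (SE 0.06, limma adjusted p = 0.346). The groups did not overlap, though the highest overexpression array, 6142, almost met the lowest negative one, 6163. MAX, its binding partner, gave 2586, 2500.5 and 2703 against 2713, 2971 and 2886, a difference of -0.14 (SE 0.07, limma adjusted p = 0.297), and 0.21 when its probe sets were averaged. Of 8 MYC and MAX family genes tested, none was called, and MXD3, a repressor of the family named after its values were seen, had the largest difference, -0.49 (SE 0.18, limma adjusted p = 0.154).

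MYC and MAX bind the E-box, whose canonical letters CACGTG read the same on both strands. It was searched in the 250 bases before each annotated start site in RefSeq (GRCh38.p14), where 37 of the 42 genes had an entry. These 37 are not the 37 tested: NOP56, DKC1, GNL3 and PPAN are among them, while NOP58, NOLC1, RRP12 and RRS1 are not. DDX21, LYAR, UTP20 and UTP18 held it, 4 of 37 or 10.8%, against 11.1% of all tested genes with an entry and 7.73% of all genes in that table. Of the other ribosome biogenesis genes, 21 of 121 (17.4%) held it. The share among the listed genes with an entry, tested or not, was thus near that of all tested genes. A match is a description of the letters and no evidence of binding. The sequences of these 4 are shown because no other listed gene with an entry held the motif. They differ in where the motif lies. It ends 25 bases before the start site in DDX21 (chr10:68956397-68956646, plus strand), 58 in LYAR (chr4:4290022-4290271, minus strand), 4 in UTP20 (chr12:101279855-101280104, plus strand) and 83 in UTP18 (chr17:51260296-51260545, plus strand). The 250 bases are written 5′ to 3′ on the gene's strand, ending at the base before the start site, with the E-box in capitals.
DDX21: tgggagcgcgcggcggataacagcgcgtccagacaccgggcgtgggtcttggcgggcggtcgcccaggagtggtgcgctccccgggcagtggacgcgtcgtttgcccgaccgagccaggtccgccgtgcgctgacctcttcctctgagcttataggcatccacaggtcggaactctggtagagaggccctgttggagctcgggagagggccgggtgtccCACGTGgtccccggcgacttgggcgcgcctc
LYAR: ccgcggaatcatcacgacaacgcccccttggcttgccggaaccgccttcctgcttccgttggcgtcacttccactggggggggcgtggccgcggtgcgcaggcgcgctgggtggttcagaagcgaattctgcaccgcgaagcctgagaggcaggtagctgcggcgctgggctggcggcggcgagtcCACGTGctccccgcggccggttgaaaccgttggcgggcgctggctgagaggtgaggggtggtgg
UTP20: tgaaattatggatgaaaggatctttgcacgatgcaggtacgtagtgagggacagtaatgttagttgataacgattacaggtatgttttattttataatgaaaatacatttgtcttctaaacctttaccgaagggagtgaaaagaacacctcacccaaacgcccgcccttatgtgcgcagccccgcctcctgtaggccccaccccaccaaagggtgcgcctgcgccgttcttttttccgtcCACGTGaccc
UTP18: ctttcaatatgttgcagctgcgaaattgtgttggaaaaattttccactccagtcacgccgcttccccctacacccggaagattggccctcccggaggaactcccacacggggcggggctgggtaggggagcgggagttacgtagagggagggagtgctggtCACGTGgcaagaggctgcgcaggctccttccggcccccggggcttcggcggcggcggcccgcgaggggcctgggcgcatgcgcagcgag
These windows are 70% G or C in DDX21 and LYAR, 66% in UTP18 and 47.6% in UTP20. WDR43, the member that was called, has no CACGTG in its window.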

How the data were processed

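Total RNA of NCI-H292 cells was hybridised to 6 arrays, 3 per group, with groups and replicate numbers taken from the sample titles. The deposited values are linear MAS5 intensities for 54675 probe sets, which the authors made with MAS5 and affy according to the submitters' processing notes (their versions are not given in the sources used here). Their 2% trimmed mean was 500.1 on every array. The intensities were taken to log2. The 62 control probe sets were left out, and probe sets above the array's median on at least 3 arrays were kept (27618). Probe sets with 1 gene symbol in the platform annotation, which can be old, were named, with symbols updated through Entrez identifiers in RefSeq (GRCh38.p14). A gene's value is that of its brightest kept probe set, by mean log2 signal. The comparison was fitted with limma 3.58.1 in R 4.3.3 (lmFit, eBayes with trend = TRUE, two-sided). Lists and figures were processed in Python 3.11.15. The number of arrays limits the precision.

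The members, their roles, the further lists and the tests were chosen with earlier results of these data known. Described in full were the CT45 probe sets, members past the threshold, the largest difference and the brightest member of each of 7 roles, members whose probe sets disagreed by over 0.5, the called genes of the other list, MYC, MAX, and up to 4 promoters with an E-box. Values of the remaining members were added beside them. On simulated arrays 200 genes were changed, by 1.5-fold, 2-fold or 4-fold. Recovery was counted only where the changed probe set still stood for its gene, in 59, 60 and 55 genes. Of these, 62.7%, 81.7% and 92.7% were recovered among 11759 genes tested, and 8 of 145 calls were false. Folds under 1.5 were not simulated, so these rates do not cover smaller differences. Alternatives were other scalings, filters, an offset of 32, variance models, the replicate number as a block, the actin ratio as a covariate, other choices of probe set, and leaving out each array.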

Additional observations from a re-analysis of the deposited data

How the results depend on the processing

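The members' median stayed below 0 in all 17 alternatives, but several of these could not have raised it. The variance models and the replicate block change only the error, and array median centring lowers every difference. Without a filter the median was also unchanged, at -0.12. It was -0.097 after quantile normalization, -0.26 after array median centring, -0.15 with the actin ratio as a covariate, -0.069 with a gene's probe sets averaged and -0.080 when _x_at and _s_at probe sets were dropped. It ranged from -0.16 (without negative replicate 3) to -0.087 (without negative replicate 2) when single arrays were left out. The number of members below 0, a count chosen after seeing the data, was 18 of 27 without _x_at or _s_at probe sets, and 26 to 34 of the members tested in the others. Separated downward, also counted after seeing the data, were 12 to 25. Members called were 16 after array median centring, 2 with a filter at the 75th percentile or robust eBayes, 0 without the variance trend or with the actin covariate, and 0 to 1 when single arrays were left out. All genes called were 1815 after centring, 11 without the variance trend, and 91 (without overexpression replicate 2) to 575 (without negative replicate 3).

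Of the other ribosome biogenesis genes, 34 were called after centring, 5 with a filter at the 75th percentile, 1 after quantile normalization, without a filter or with the actin covariate, 0 without the variance trend and 0 to 2 when single arrays were left out. Their median was -0.24 after centring and -0.039 with the actin covariate. The actin ratio did not overlap between the groups, so results with that covariate are no correction for RNA quality. The causes of these changes were not tested.

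With the replicate number as a block, 2 members were called, WDR43 and GAR1 (adjusted p = 0.0447), 536 of all genes and 3 of the other list. Same-numbered arrays correlated at -0.01, -0.01 and 0.10 in their deviations from the group means, so the numbers were not taken as pairs.

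Signs turned in these cases, none of them past the threshold. After centring, POLR1A was -0.045, FBL -0.089, WDR75 -0.11, TSR1 -0.10, NOP2 -0.028 and RRS1 -0.11. With the actin covariate, WDR3 was 0.0011, WDR36 0.012, NOP14 0.062, TSR1 -0.094, GNL2 0.14, BRIX1 -0.17 and MYC 0.0063. With the mean of probe sets, POLR1B was 0.027, NCL 0.0088, TSR1 -0.061 and MAX 0.21. NCL was 0.0026 after quantile normalization and 0.064 without _x_at or _s_at probe sets. With single arrays left out, NCL ranged from -0.10 to 0.032, FBL from -0.0084 to 0.12, NOP14 from -0.083 to 0.064, TSR1 from -0.026 to 0.17, GNL2 from -0.083 to 0.012 and RRS1 from -0.068 to 0.11. Signal over background limits the dimmer probe sets, whose standard errors reached 0.48.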
